A study of Mus musculus with 8 samples.

Results

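The Hox genes are the homeobox genes of the clusters HoxA, HoxB, HoxC and HoxD, and were taken as every entry of the expression table whose symbol is Hoxa, Hoxb, Hoxc or Hoxd followed by a paralog number and nothing else. This rule uses no measured value, and it found 38 of the 19301 listed genes, with 11 in HoxA, 10 in HoxB, 9 in HoxC and 8 in HoxD. Hoxd12 was not among the listed genes. The study cultured primary mouse tendon stem cells (TSCs), which its methods describe as cells of C57BL/6J patellar tendon released by collagenase and kept in low glucose DMEM with serum. One group received HFHG medium, with palmitic acid (a saturated fatty acid) at 300 µM and high glucose, and the other received low glucose (LG) medium, with 5.5 mM glucose, the vehicle DMSO and no palmitic acid. RNA was sequenced after 4 days from 4 biological replicates of each group, so the comparison asks how Hox expression of these cells differed between the media. The sources used do not say whether the replicates were separate animals or separate cultures of the same cells, so each p-value measures the spread between these libraries only. Glucose and palmitic acid changed together, so their effects cannot be told apart.

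Hox genes code for transcription factors that bind DNA through the homeodomain, the protein fold coded by the homeobox. Within each cluster the genes lie in order of their paralog number, and along the embryonic body axis and the limb the low numbers are used towards the head or the trunk and the high numbers towards the tail or the tip of the limb. Adult fibroblasts and tendon cells keep a Hox pattern that reflects where in the body they came from, which is known as positional identity.

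Expression was given in FPKM, which scales the fragments of a gene to its length and to the mapped fragments of its library. Whole read numbers were recovered from these values, and the libraries held 37362725, 35385644, 35996958 and 36544763 reads in HFHG replicates 1 to 4 and 34308108, 36308533, 35437050 and 35591854 reads in LG replicates 1 to 4. Over all genes tested, 81.0% of the variance between libraries lay along the first principal component, which separated the media, and 4.18% along the second, on which LG replicate 4 stood apart from the other libraries. The filter on low values, 0.5 FPKM or more in 4 or more of the 8 libraries, kept 25 Hox genes for testing and left 13 below it. None of the 25 was kept through 1 group alone, since all of their values were above 0.5 FPKM apart from that of Hoxa4 in HFHG replicate 3, at 0.471 FPKM.

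The homeoboxes of 5 called genes are printed here, because they show how alike the measured genes are. Hoxa13, Hoxb13 and Hoxc13 are paralogs of the last group in 3 clusters and were all higher in HFHG, and Hoxb6 and Hoxb7 are direct neighbours in HoxB that moved in opposite directions. Each sequence is the 180 bases of the homeobox in the GENCODE M21 transcript (GRCm38), read 5′ to 3′ on the coding strand, and the capitals mark the 18 bases that code for the core of the recognition helix, which sits in the major groove of DNA.
Hoxa13: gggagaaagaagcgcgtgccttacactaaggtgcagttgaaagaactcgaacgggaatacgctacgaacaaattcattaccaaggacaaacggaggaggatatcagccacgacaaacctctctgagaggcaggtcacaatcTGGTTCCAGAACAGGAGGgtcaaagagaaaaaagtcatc
Hoxb13: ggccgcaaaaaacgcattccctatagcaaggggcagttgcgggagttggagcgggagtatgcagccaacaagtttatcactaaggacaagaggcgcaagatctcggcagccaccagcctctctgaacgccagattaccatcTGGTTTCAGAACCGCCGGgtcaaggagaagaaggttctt
Hoxc13: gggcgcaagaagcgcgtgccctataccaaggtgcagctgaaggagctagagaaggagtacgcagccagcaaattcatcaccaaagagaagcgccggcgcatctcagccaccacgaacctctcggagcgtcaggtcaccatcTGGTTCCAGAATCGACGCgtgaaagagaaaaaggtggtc
Hoxb6: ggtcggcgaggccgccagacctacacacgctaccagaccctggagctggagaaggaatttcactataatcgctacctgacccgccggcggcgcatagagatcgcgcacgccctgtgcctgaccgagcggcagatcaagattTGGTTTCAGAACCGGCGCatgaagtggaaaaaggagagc
Hoxb7: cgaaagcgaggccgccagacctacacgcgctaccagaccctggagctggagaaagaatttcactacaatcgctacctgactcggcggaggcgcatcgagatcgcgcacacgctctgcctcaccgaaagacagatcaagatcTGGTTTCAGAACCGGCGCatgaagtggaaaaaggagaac
A homeobox was found in a transcript of all 38 Hox genes. Hoxa13 and Hoxc13 were identical at 139 of 180 bases (77.2%), with 14 bases as the longest shared run. Hoxb13 was identical to Hoxc13 at 133 bases (73.9%) and to Hoxa13 at 124 bases (68.9%). The pair Hoxb6 and Hoxb7 was identical at 160 bases (88.9%), with a shared run of 37 bases. Of the stretches of 50 bases in the transcripts of Hoxa13, Hoxb7, Hoxb13, Hoxc11, Hoxc12 and Hoxc13, 0% occurred in another gene, and of those in Hoxb6 0.839% did.

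A gene was called higher or lower when its adjusted p in the limma fit over all 11710 tested genes was below 0.05. Of the 25 tested Hox genes, 9 were called higher in HFHG and 4 lower, or 13 in all (52.0%). Over all tested genes the share called was 64.8%, with 34.0% higher and 30.8% lower. The number of Hox genes called higher is thus near the share of all genes. The median log2 fold change was 0.12 over the tested Hox genes and 0.02 over all tested genes. With quantile normalization 9 Hox genes were higher and 9 lower, beside 3606 higher and 4024 lower of all 11710 genes. The Hox genes that this scaling added to those called lower were Hoxa4, Hoxa5, Hoxb4, Hoxc6 and Hoxd8. With libraries rescaled to the same sum 10 Hox genes were higher and 3 lower, beside 4682 and 3002 of all genes. So the balance between directions depends on the scaling, for the Hox genes as for all genes, and the 4 called lower are not read as a low number. No tested Hox gene (0) changed more than 2-fold at an adjusted p below 0.05, against 5.31% of all tested genes, and the number was also 0 at an unadjusted p below 0.05 and with limma's voom on the recovered reads of the same genes. At an unadjusted p below 0.05, whatever the fold, 13 Hox genes were called. The share of all tested genes at that threshold is not given here, so this number is not compared with it. The libraries are of bulk RNA, so a change in the share of cells that express a Hox gene and a change in its RNA per cell cannot be told apart.

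**Figure D1:**
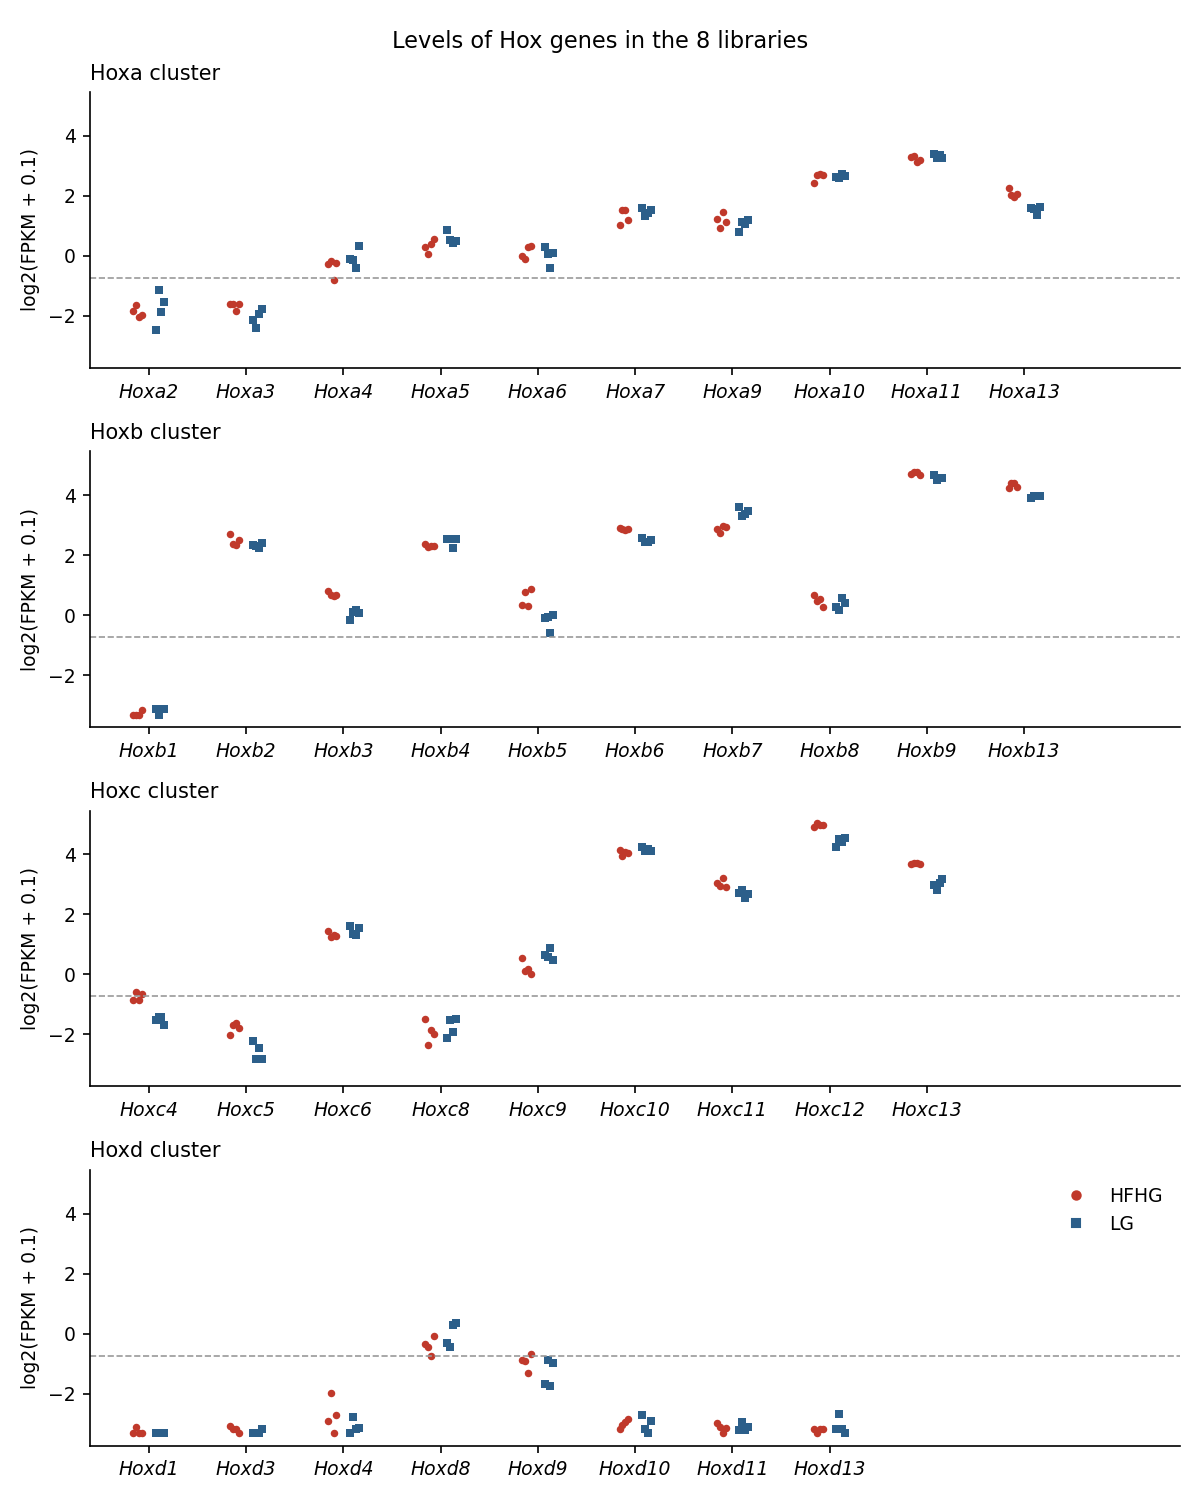
Level of 37 Hox genes in each library as log2(FPKM + 0.1), by cluster and in order of paralog number, with HFHG as red circles, LG as blue squares and the filter of 0.5 FPKM as a dashed line. The highest levels are at the high paralog numbers of HoxB and HoxC, and 7 of the 8 HoxD genes lie below the line.

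The summed FPKM of all 38 Hox genes was 178, 180, 181 and 176 in HFHG and 161, 155, 154 and 159 in LG. All 4 HFHG libraries were above all 4 LG libraries, and the ratio of the group means was 1.14. The HoxC genes summed to 73.4 ± 1.13 FPKM in HFHG and 58.4 ± 1.40 FPKM in LG (SD, n = 4), without overlap. HoxB genes summed to 75.7 ± 1.01 and 68.9 ± 2.496 FPKM, also without overlap. For HoxA the sums were 28.5 ± 0.434 and 28.6 ± 0.866 FPKM and the groups overlapped, with a ratio of the means of 0.993 that moved to 1.04 when libraries were rescaled to the same sum and to 0.943 with quantile normalization. The HoxD sums, 1.21 ± 0.259 and 1.30 ± 0.276 FPKM, also overlapped and came mostly from Hoxd8 and Hoxd9. Thus the higher total in HFHG came from HoxC and HoxB.

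By paralog number, the genes 9 to 13 made up 77.0% to 78.4% of the Hox FPKM in HFHG and 72.5% to 75.1% in LG, so that this share was higher in every HFHG library. Paralogs 4 to 8 took 17.1% to 18.2% in HFHG and 20.2% to 22.8% in LG, again without overlap. Their summed FPKM, 30.7 to 32.2 in HFHG and 31.3 to 36.3 in LG, did overlap, while that of paralogs 9 to 13 was 136 to 142 in HFHG and 114 to 118 in LG. The lower share of paralogs 4 to 8 thus came largely with the higher level of paralogs 9 to 13. For paralogs 1 to 3 the shares, 4.19% to 5.28% and 4.69% to 5.15%, overlapped. Across the 25 tested genes, the Spearman correlation of the mean level (log2 FPKM) with the paralog number was 0.62, and that of the log2 fold change with the paralog number was 0.32. Within clusters the correlation of the fold change was 0.80 across 9 HoxA genes, 0.94 across 6 HoxC genes and -0.23 across 9 HoxB genes. The sums, the shares and the correlation of the level also rest on the gene lengths behind the FPKM, which are treated below. These correlations are across genes of the same libraries, which are not independent replicates. They cover only genes above the filter, so that of HoxA leaves out Hoxa2 and Hoxa3 and that of HoxC leaves out Hoxc8 and also Hoxc4 and Hoxc5, which were higher in HFHG, and none of them describes a whole cluster.

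By mean FPKM per gene, Hoxc12 came first in HFHG and Hoxb9 first in LG, with Hoxc12 above Hoxb9 in 4 of 4 HFHG libraries and in 1 of 4 LG libraries. In HFHG they were followed by Hoxb13, Hoxc10, Hoxc13, Hoxa11, Hoxc11 and Hoxb7, and in LG by Hoxc10, Hoxb13, Hoxb7, Hoxa11, Hoxc13 and Hoxc11. As deposited, Hoxb6 and Hoxb7 did not differ in HFHG beyond their spread, at 7.24 ± 0.157 and 7.27 ± 0.479 FPKM. A level compared or summed between genes rests on the gene lengths behind the FPKM, which for some genes differ from the annotation. The length implied by the values of Hoxc11 was 915 bases, against 2021 exon bases in GENCODE M21. That of Hoxa13 was 1318 against 2472, and that of Hoxb13 was 1369 against 2206. For Hoxb3 the implied length was the longer one, at 7759 against 4251 bases.

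Paralogs 12 and 13 specify the most posterior and distal structures, among them tail, digits, hair and nails. Hoxc13, which hair and nails need, measured 12.8, 13.1, 13.2 and 12.7 FPKM in HFHG and 8.94, 8.26, 6.96 and 7.88 FPKM in LG. Every HFHG library was above every LG library by a wide gap, and the HFHG values lay close together. The log2 fold change was 0.69 (SE 0.0648, adjusted p = 9.98e-07). Its neighbour Hoxc12 measured 30.2, 33.0, 31.4 and 31.4 FPKM in HFHG and 23.2, 21.2, 22.9 and 18.8 FPKM in LG. The groups did not overlap, and LG replicate 4 was the lowest. Hoxc12 had a log2 fold change of 0.55 (SE 0.0591, adjusted p = 3.65e-06). Hoxb13, a gene of the tail bud and the prostate, measured 18.7, 20.9, 20.9 and 19.4 FPKM in HFHG and 15.5, 15.6, 15.6 and 15.04 FPKM in LG. Here too all HFHG values were the higher ones, with the LG values close together. Its log2 fold change was 0.37 (SE 0.0425, adjusted p = 7.2e-06). Hoxa13, which the digits need, measured 4.69, 3.99, 3.82 and 4.05 FPKM in HFHG and 3.01, 2.44, 2.83 and 2.92 FPKM in LG. The highest value was in HFHG replicate 1, and the groups did not overlap. Hoxa13 had a log2 fold change of 0.55 (SE 0.0847, adjusted p = 9.91e-05). The remaining gene of the group, Hoxd13, was below the filter, with 3 reads in HFHG and 7 in LG, each summed over 4 libraries. As the printed homeoboxes show, the 3 tested genes of paralog group 13 have distinct sequences, and no stretch of 50 bases is shared between their transcripts.

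Paralogs 9 to 11 pattern the trunk and the proximal and middle limb. Hoxc11, a hindlimb gene, measured 8.22, 7.60, 9.26 and 7.48 FPKM in HFHG and 6.28, 5.75, 6.88 and 6.42 FPKM in LG. The groups did not overlap, and replicate 3 was the highest library of both. Its log2 fold change was 0.36 (SE 0.0744, adjusted p = 0.00105). Hoxc10, also a hindlimb gene, measured 17.5, 15.5, 16.6 and 16.3 FPKM in HFHG and 17.3, 17.9, 17.2 and 19.1 FPKM in LG. HFHG replicate 1 lay among the LG values, so the groups overlapped. The log2 fold change of Hoxc10 was -0.12 (SE 0.0469, adjusted p = 0.0448), a call that 10 of 20 alternative settings did not keep. By the exact two-sided permutation test, which cannot go below p = 0.0286 with 4 against 4 libraries, Hoxc10 had p = 0.0857. Hoxc9, a trunk gene, measured 1.36, 0.977, 1.02 and 0.906 FPKM in HFHG and 1.28, 1.73, 1.39 and 1.45 FPKM in LG. HFHG replicate 1 was above LG replicate 1, so these groups overlapped as well. The log2 fold change of Hoxc9 was -0.43 (SE 0.134, adjusted p = 0.0131), with an exact permutation p = 0.0571. Hoxb9, which acts with its paralogs in the thoracic segments, measured 26.0, 27.3, 27.4 and 25.5401 FPKM in HFHG and 23.7, 24.0, 22.4 and 25.5374 FPKM in LG. HFHG replicate 4 and LG replicate 4 were almost equal, and the groups only just failed to overlap. The log2 fold change of Hoxb9 was 0.15 (SE 0.0428, adjusted p = 0.00728). Hoxa11, a gene of the middle limb and among the most abundant Hox genes here, measured 9.74, 10.02, 8.72 and 8.98 FPKM in HFHG and 9.58, 10.3, 9.57 and 10.4 FPKM in LG. Its groups overlapped, and it was not called (log2 fold change -0.09, SE 0.0549, adjusted p = 0.173). Antisense exons of Hoxa11os cover 35.0% of its exon bases.

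In HoxC, then, Hoxc9 and Hoxc10 were lower and Hoxc11, Hoxc12 and Hoxc13 higher in HFHG, with the call of Hoxc10 kept in only 10 of 20 alternative settings. At the other end of the cluster Hoxc4 and Hoxc5, both below the filter and named for their lack of overlap, were also higher. No single trend along HoxC is read from these values. The ratio of Hoxc13 to Hoxc10 within a library was 0.736 to 0.850 in HFHG and 0.404 to 0.518 in LG. For Hoxc12 to Hoxc10 the ratio was 1.73 to 2.13 in HFHG and 0.984 to 1.35 in LG. Within HoxA, Hoxa13 to Hoxa10 was 0.588 to 0.891 in HFHG and 0.370 to 0.482 in LG. The ratio of Hoxb13 to Hoxb9 was 0.720 to 0.767 in HFHG and 0.589 to 0.696 in LG. In each of these pairs all HFHG libraries were above all LG libraries. A ratio within a library does not change when the library is multiplied by 1 factor, but quantile normalization can change it. The pairs were chosen after the values were seen and are a description, with no test.

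**Figure D2:**
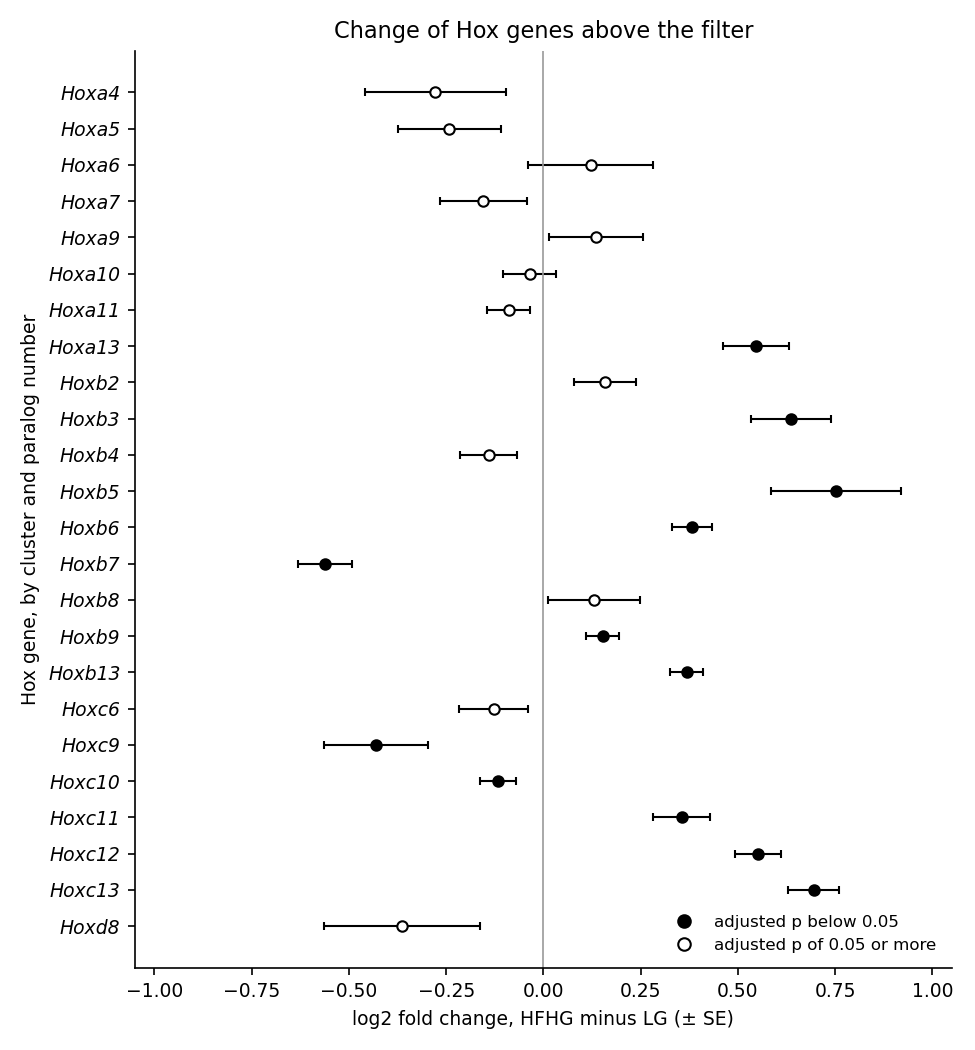
Log2 fold change (HFHG minus LG) of 24 tested Hox genes in cluster order, with bars of 1 SE and filled points for an adjusted p below 0.05. Hoxa13, Hoxb13, Hoxc11, Hoxc12 and Hoxc13 are above 0, and Hoxb7, at -0.56, is the lowest called gene.

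Paralogs 4 to 8 pattern the neck and the trunk. Hoxb7 measured 7.21, 6.62, 7.67 and 7.58 FPKM in HFHG and 11.1, 10.2, 9.85 and 12.0 FPKM in LG. All HFHG values were below all LG values. Its log2 fold change was -0.56 (SE 0.0683, adjusted p = 1.19e-05). Hoxb6, which lies next to Hoxb7 on chromosome 11, measured 7.45, 7.19, 7.08 and 7.25 FPKM in HFHG and 5.62, 5.33, 5.32 and 5.89 FPKM in LG. For this gene all HFHG values were the higher ones. Hoxb6 had a log2 fold change of 0.38 (SE 0.0515, adjusted p = 3e-05). In GRCm38, Hoxb7 spans bases 96286623 to 96290162 and Hoxb6 bases 96292476 to 96301569, both on the plus strand, with 2313 bases between them. The ratio of Hoxb6 to Hoxb7 was 0.923 to 1.09 in HFHG and 0.489 to 0.540 in LG, again a pair chosen after the values were seen. So the level of Hoxb6 relative to Hoxb7 was higher in every HFHG library. Which of the pair was the more abundant rests on the gene lengths, since the values imply 1612 bases for Hoxb6 and 2143 for Hoxb7, against 1964 and 1544 exon bases in GENCODE M21. Hoxb5, which helps to place the forelimb, measured 1.17, 1.59, 1.13 and 1.73 FPKM in HFHG and 0.892, 0.567, 0.863 and 0.845 FPKM in LG. Replicates 2 and 4 were the high ones in HFHG, replicate 2 was the low one in LG, and the groups did not overlap. From 387 reads in HFHG and 212 in LG, its log2 fold change was 0.75 (SE 0.167, adjusted p = 0.00157).

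The genes of paralogs 1 to 3 act in the hindbrain and the head. Hoxb3 measured 1.64, 1.48, 1.46 and 1.48 FPKM in HFHG and 0.958, 1.02, 0.978 and 0.8003 FPKM in LG. HFHG replicate 1 was the highest, and the groups did not overlap. Its log2 fold change was 0.64 (SE 0.103, adjusted p = 0.000137). Of the exon bases of Hoxb3, 52.9% lie opposite exons of the antisense gene Hoxb3os, and the kit is a stranded one, but the strand setting of the read counting is not given in the sources used, so reads of Hoxb3os within this value were not separated.

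The 12 tested Hox genes that were not called were Hoxa4, Hoxa5, Hoxa6, Hoxa7, Hoxa9, Hoxa10, Hoxa11, Hoxb2, Hoxb4, Hoxb8, Hoxc6 and Hoxd8. Their log2 fold changes ran from -0.36 for Hoxd8 to 0.16 for Hoxb2, and each had groups that overlapped. Hoxd8, the only HoxD gene tested, measured 0.694, 0.641, 0.502 and 0.836 FPKM in HFHG and 1.17, 1.12, 0.627 and 0.702 FPKM in LG. LG replicates 1 and 2 were the high ones, while LG replicates 3 and 4 lay among the HFHG values (adjusted p = 0.130). Without LG replicate 3 the log2 fold change of Hoxd8 was -0.51, with an adjusted p = 0.0421. Hoxb4 measured 5.05, 4.75, 4.88 and 4.88 FPKM in HFHG and 5.74, 4.59, 5.65 and 5.70 FPKM in LG, so LG replicate 2 alone lay below the HFHG values. The adjusted p of Hoxb4 was 0.109 with all libraries and 0.00498 without LG replicate 2. Hoxa10 measured 5.26, 6.35, 6.49 and 6.33 FPKM in HFHG and 6.24, 6.61, 6.01 and 6.13 FPKM in LG, with HFHG replicate 1 as the low value. Its log2 fold change was -0.04, and it had the opposite sign, 0.03, without that library.

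Of the 13 Hox genes below the filter, 2 had groups that did not overlap, Hoxc4 and Hoxc5, against 9.21% of the 7591 genes below the filter. Among 13 genes, 2 is near that share, so the count is not read as a result about the Hox genes. Hoxc4, a neck gene at the anterior end of HoxC, measured 0.455, 0.569, 0.455 and 0.540 FPKM in HFHG and 0.208, 0.272, 0.272 and 0.248 FPKM in LG. These values came from 81, 96, 78 and 94 reads in HFHG and 34, 47, 46 and 42 reads in LG. The means differed 2.02-fold. Groups of 4 that do not overlap always give an exact permutation p = 0.0286, the smallest that is possible. As Hoxc4 was named for that lack of overlap, this p adds nothing to it. Without a filter, limma gave Hoxc4 a log2 fold change of 0.79 (adjusted p = 0.000913), a value that the added 0.1 FPKM pulls towards 0. Hoxc5, which lies beside Hoxc4, measured 0.147, 0.207, 0.224 and 0.190 FPKM in HFHG and 0.0427, 0.0807, 0.0413 and 0.113 FPKM in LG. Those are 15, 20, 22 and 19 reads in HFHG and 4, 8, 4 and 11 reads in LG, and LG replicate 4 was the highest of its group. The limma fit without a filter gave 0.80 for Hoxc5 (adjusted p = 0.00303). Its exact permutation p = 0.0286 likewise follows from the lack of overlap. Both genes were higher in HFHG, as Hoxc11, Hoxc12 and Hoxc13 were, but they were named because their groups did not overlap. With limma's voom on all recovered reads without a filter, a setting chosen after seeing the data, Hoxc4 and Hoxc5 were the 2 Hox genes past 2-fold, with log2 fold changes of 1.002 and 1.49. The share of all genes past 2-fold in that fit is not given here, so the 2 are not compared with it. Of the exon bases of Hoxc5, 5.37% are shared with Hoxc10 on the same strand.

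The other 11 genes below the filter had overlapping groups. They were Hoxa2, Hoxa3, Hoxb1, Hoxc8, Hoxd1, Hoxd3, Hoxd4, Hoxd9, Hoxd10, Hoxd11 and Hoxd13. Hoxd9 had the highest level of these, with 0.304 to 0.521 FPKM in HFHG and 0.197 to 0.443 FPKM in LG. Hoxa3 measured 0.178 to 0.232 FPKM in HFHG and 0.0879 to 0.190 FPKM in LG, so only LG replicate 1 reached into the HFHG range (exact permutation p = 0.0571). Hoxd1 had 1 read in HFHG replicate 2 and 0 in the 7 other libraries, where 3 reads would correspond to between 0.0431 and 0.0470 FPKM. The limit covers counting error only. Hoxb1, Hoxd3, Hoxd10, Hoxd11 and Hoxd13 had at most 5 reads in any library, and Hoxd4 at most 14. No difference was detected in these genes, and how large a difference could be detected at these read numbers was not tested. Of the exon bases of Hoxd3, 62.3% are shared with other genes on the same strand, Hoxd4 among them, so the few reads of these genes are not assigned with certainty.

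**Figure D3:**
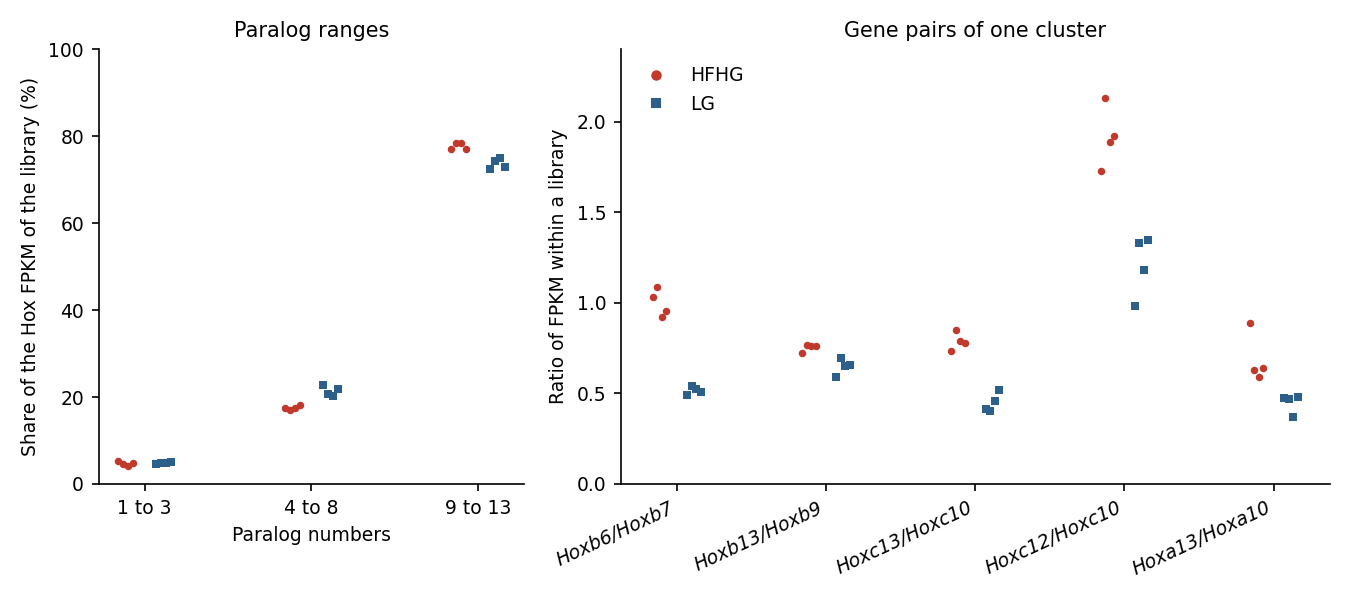
Share of the summed Hox FPKM held by each range of paralog numbers in each library (percent), and ratios of pairs of Hox genes within each library, with HFHG as red circles and LG as blue squares. The share of paralogs 9 to 13 and each of the ratios are higher in all 4 HFHG libraries than in all 4 LG libraries.

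The label of the cells as tendon stem cells was set against fixed lists of marker genes. All 12 tendon markers were above the filter, and they summed to 3782, 3824, 3794 and 3812 FPKM in HFHG and 2710, 2720, 2702 and 2745 FPKM in LG, with Bgn as the most abundant. Of these 12, 8 were called higher and 2 lower, where 34.0% of all tested genes were higher and 30.8% lower. The 2 lower were Mkx (log2 fold change -0.35) and Egr1 (-0.40). Scx and Tnmd were low, with means of 2.27 and 1.10 FPKM in HFHG and 1.45 and 0.614 FPKM in LG. Both were called higher, though the groups of Scx overlapped. By qPCR, the paper reports less Scx and Tnmd in HFHG medium and no significant change of Mkx. The 4 fibroblast markers were all called higher, with sums of 280, 283, 276 and 276 FPKM in HFHG and 187, 186, 184 and 189 FPKM in LG, and Thy1 was the most abundant. Markers of macrophages were present as well, and the 10 genes of this list summed to 1773, 1747, 1739 and 1724 FPKM in HFHG and 1893, 1909, 1926 and 1977 FPKM in LG. Lyz2 made up most of it, with means of 1637 and 1765 FPKM, and Adgre1 measured 26.5 and 38.0 FPKM. Of the 9 tested macrophage markers, 0 were higher and 8 lower in limma's test, and Ptprc, at 1.98 and 2.26 FPKM, was not called. So the sums of tendon and fibroblast markers moved in the direction of the Hox sum, and those of macrophages in the other, and their part in the Hox differences was not tested. Smooth muscle and pericyte markers summed to 75.6, 75.5, 73.9 and 72.8 FPKM in HFHG and 50.1, 47.2, 48.04 and 50.7 FPKM in LG, with 2 of 4 tested and both higher. Endothelial markers summed to at most 2.15 FPKM and those of skeletal muscle to at most 4.06 FPKM, each sum higher in all LG libraries. The skeletal muscle sum came mostly from Acta1, with means of 0.904 FPKM in HFHG and 3.38 FPKM in LG. Myod1, Pax7, Des and Myh3 were below the filter, and Myog was not listed. Of the endothelial list 2 genes were tested, and Vwf, with means of 0.393 and 1.04 FPKM, was called lower and the other, Tek, higher. The lists of chondrocyte, bone, adipocyte and epithelial markers had 0 genes above the filter, and no marker was at 0 in all 8 libraries.

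The Hox pattern was also set beside other genes of limb position. Pitx1, which specifies the hindlimb, measured 0, 0.0106, 0.0104 and 0.0103 FPKM in HFHG and 0.0110, 0.0621, 0 and 0 FPKM in LG, from at most 6 reads in a library. Tbx4, a hindlimb gene, measured 2.76, 3.51, 2.93 and 2.87 FPKM in HFHG and 2.496, 2.85, 2.56 and 2.91 FPKM in LG, with overlapping groups (log2 fold change 0.15, adjusted p = 0.158). Tbx5, its counterpart of the forelimb, had at most 7 reads, and its highest value was 0.0333 FPKM. So the cells had Tbx4 and hardly any Tbx5, beside Hoxc10 and Hoxc11, while Pitx1 was near 0 in every library of these patellar tendon cells. Of the list of 43 limb genes, 42 were listed and 20 tested, with 11 called higher and 1 lower (60%, against 64.8% of all tested genes) and a median log2 fold change of 0.25. Prrx2, a homeobox gene of limb mesenchyme, measured 20.4, 21.1, 20.6 and 21.3 FPKM in HFHG and 8.86, 7.09, 6.40 and 9.99 FPKM in LG. Tbx3, a gene of the limb margins, measured 3.88, 4.58, 4.28 and 4.14 FPKM in HFHG and 2.13, 1.85, 2.03 and 1.58 FPKM in LG. Neither overlapped, and their log2 fold changes were 1.38 for Prrx2 (adjusted p = 1.86e-07) and 1.12 for Tbx3 (adjusted p = 3.7e-07), larger than that of any tested Hox gene. Irx5 rose by 0.84 and Osr1 by 0.77 on the same scale. Prrx1 and Irx1, the most abundant of the list by the mean of all libraries, rose by 0.42 and 0.49. In LG alone Meox2, at a mean of 30.3 FPKM, was above Irx1, at 25.6 FPKM. Meox2 was the 1 limb gene called lower (log2 fold change -0.15, adjusted p = 0.00127).

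**Figure D4:**
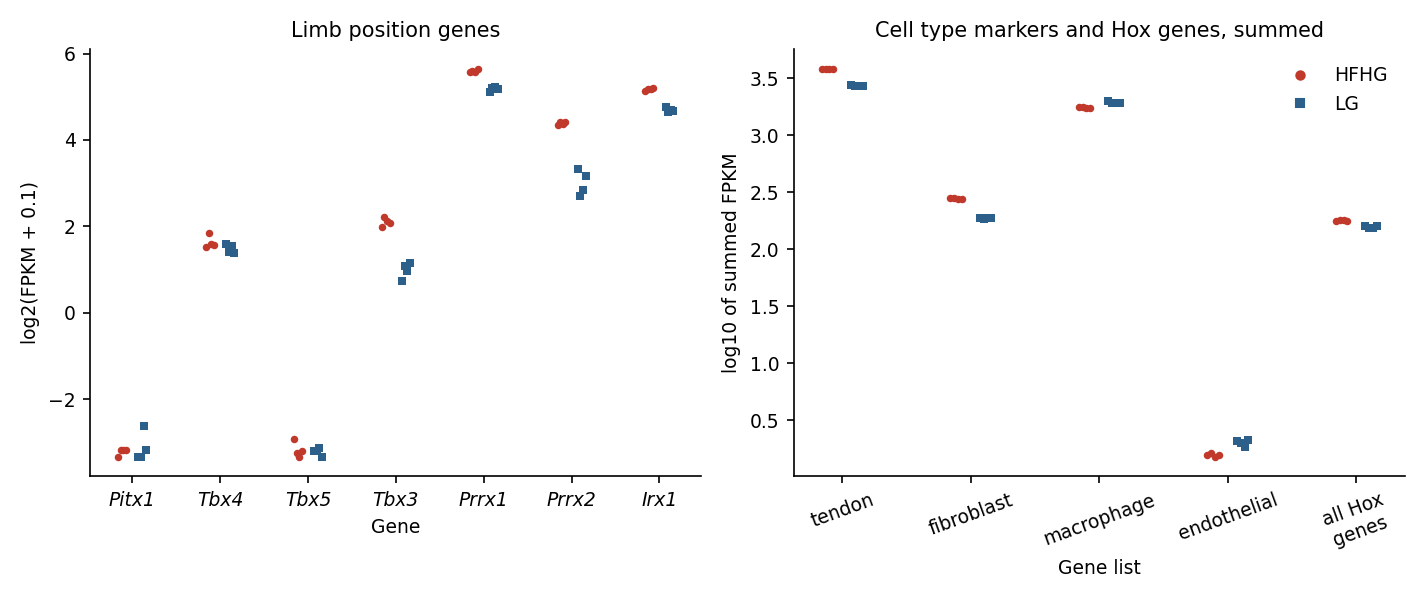
Levels of Pitx1, Tbx4, Tbx5, Tbx3, Prrx1, Prrx2 and Irx1 in each library as log2(FPKM + 0.1), and the log10 of the summed FPKM of marker lists and of all Hox genes, with HFHG as red circles and LG as blue squares. Pitx1 and Tbx5 are near 0 FPKM in both media, and the sum of all Hox genes is higher in every HFHG library while that of the macrophage markers is lower.

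TALE homeodomain proteins (Pbx, Meis, Pknox and Tgif) bind DNA beside Hox proteins or at similar sites. All 11 TALE genes were tested, and 4 were called higher and 2 lower (54.5%, against 64.8% of all tested genes), with a median log2 fold change of 0.16. Pbx2, a partner of Hox proteins on DNA, rose by 0.39 (adjusted p = 4.46e-06) on the log2 scale. Tgif1, a repressor of the family, measured 15.4, 13.5, 14.3 and 14.2 FPKM in HFHG and 28.8, 28.7, 28.4 and 30.2 FPKM in LG, without overlap (log2 fold change -1.01, adjusted p = 4.75e-10). Both of the low genes Pknox2 and Tgif2 were called higher, by 0.55 and 0.54, and with quantile normalization neither was called (adjusted p = 0.0611 and 0.127). Thus Pbx2 rose while Tgif1, the most abundant TALE gene in LG, fell.

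Hox clusters are switched on through retinoic acid receptors, Gdf11, Cdx factors and the Trithorax group of chromatin regulators, and kept silent by the Polycomb group. Of 20 such activators, 19 were listed and 16 tested, with 7 called higher and 3 lower (62.5%, median log2 fold change 0.12). Rarb, a receptor that is itself a target of retinoic acid, measured 0.766, 0.751, 1.33 and 1.06 FPKM in HFHG and 3.53, 3.69, 3.97 and 3.24 FPKM in LG. Its log2 fold change, -1.81 (adjusted p = 3.51e-07), was the largest in size of the list, while Rarg, the most abundant, was at 35.7 FPKM in both groups. Gdf11, a ligand that acts on posterior Hox genes in the embryo, rose by 0.76 (adjusted p = 9.95e-08). Kmt2a, a Trithorax enzyme, rose by 0.48 and the demethylase Kdm6b by 0.44. The receptor partner Rxra rose by 0.26. Of the 29 Polycomb genes, all listed and 26 tested, 8 were called higher and 9 lower (65.4%, median log2 fold change 0.04). Pcgf5 had the largest change among them, -0.68, followed by Phc3 at 0.55, Phc1 at -0.41 and Pcgf6 at -0.40. Rbbp7 and Rbbp4, the most abundant, changed by -0.27 and -0.25. Each of these shares is near the 64.8% of all tested genes, and no link of these genes with the Hox differences was tested.

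Genes that flank the clusters were counted as well. The list held 14 symbols for 13 flanking genes, since Lnpk also stood under a former symbol, and 11 were listed and 7 tested, with 1 called higher and 2 lower (42.9%, against 64.8% of all tested genes, median log2 fold change 0.01). Skap2, beside the anterior end of HoxA, changed by -0.35 (adjusted p = 5.43e-07). Calcoco1 and Smug1, near the ends of HoxC, changed by 0.30 and -0.27. Hibadh, beyond the Hoxa13 end of HoxA, changed by 0.07 and was just short of a call (adjusted p = 0.0511). Mtx2, beside HoxD, changed by -0.07 (adjusted p = 0.161). Non-coding transcripts and microRNAs of the clusters, such as Hotair and Hottip, had 0 entries among the listed genes, so they were not analysed here.

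**Figure D5:**
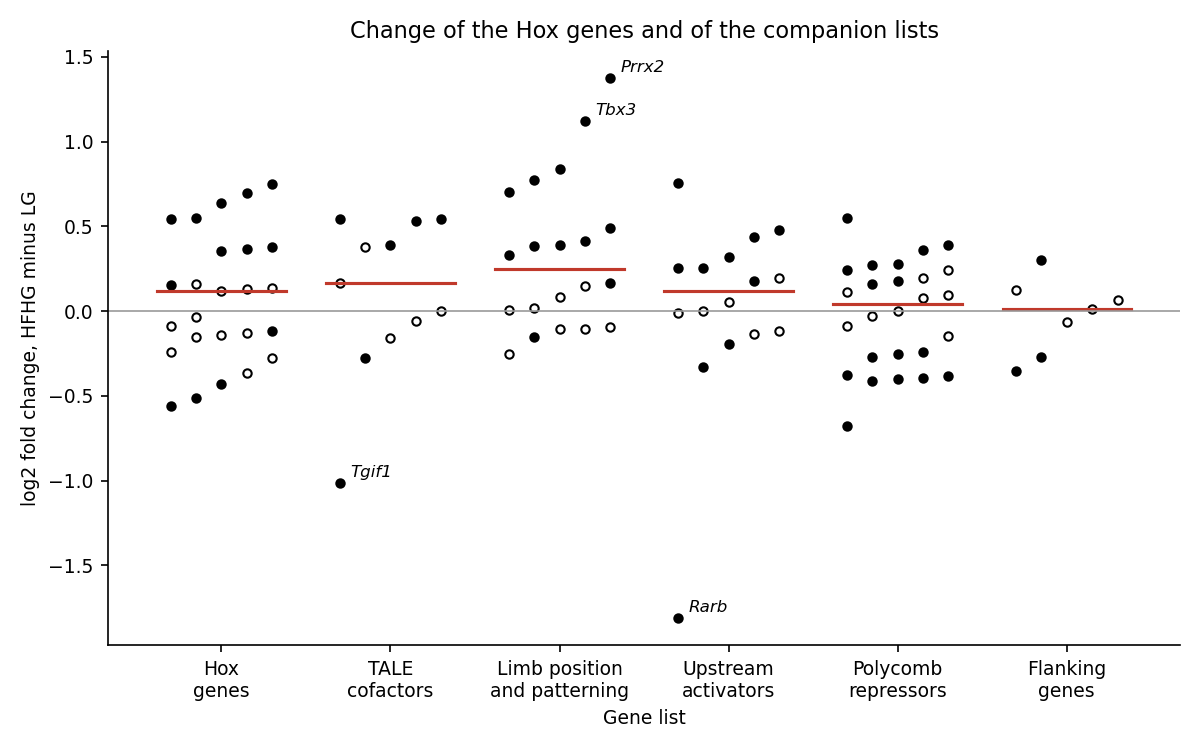
Log2 fold change (HFHG minus LG) of each tested gene of the Hox genes, TALE cofactors, limb genes, activators, Polycomb genes and flanking genes, with filled points for an adjusted p below 0.05 and the median of each list as a red line. Prrx2 and Tbx3 lie above 1, Tgif1 and Rarb below -1, and no Hox gene past 1 in size.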

How the data were processed

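mRNA of mouse TSCs was measured in 8 libraries, 4 HFHG and 4 LG, grouped by their labels, and the doses come from the Results of the study's paper. The authors deposited FPKM, fragments scaled to gene length and to the mapped fragments of each library. The submitters' processing notes name HISAT2 2.1.0 and mm10, and the counting program and annotation are not given in the sources used. Whole reads were recovered from the FPKM values (Python 3.11.15). limma 3.58.1 in R 4.3.3 (lmFit, eBayes with trend) was run on log2(FPKM + 0.1) of genes with at least 0.5 FPKM in at least 4 libraries, as HFHG minus LG without covariates, with Benjamini-Hochberg adjustment over all 11710 genes, and it was tested on simulated data. Exact two-sided permutation tests used all 70 arrangements. Named are the Hox genes, with every library for those called (1 Hox gene and 1 TALE gene are counted but not reported here), for the 5 most abundant and for genes below the filter whose groups did not overlap; of each other list, Pitx1, Tbx4, Tbx5, up to 4 called genes with the largest change and the 2 most abundant. Hoxa3, Hoxa10, Hoxb4, Hoxd8 and Hoxd9 were given in more detail, and tendon, macrophage, endothelial and skeletal muscle markers named, after their values were seen. Outside these rules, Hoxa11, which was not among the 5 most abundant, was given in every library, and Meox2 was named. Positions and sequences come from GENCODE M21 (GRCm38). The members and lists were chosen with earlier results of these data known. Alternatives were other pseudocounts, filters and scalings, the replicate number as a block, robust eBayes, voom on recovered reads, and leaving out each library.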

Additional observations from a re-analysis of the deposited data

Results flagged for a closer look

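In 11 of the 76 Hox gene groups examined, and in 17 of 154 groups once the named genes of the other lists and the summed Hox levels are included, 1 of the 4 libraries stood apart from the other 3, which chance alone does in about 1 of 20 groups of continuous values; that rate does not hold for groups of 0 or 1 read, where a single read sets a library apart. Each value is an FPKM, with the range of the other libraries of its group.

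In HFHG, Hoxa3 was at 0.178 in replicate 3 (others 0.227 to 0.232). Hoxa10 in HFHG replicate 1 was at 5.26 (others 6.33 to 6.49). Hoxb3 in HFHG replicate 1 was at 1.64 (others 1.46 to 1.48). Among the LG libraries, Hoxb4 was at 4.59 in replicate 2 (others 5.65 to 5.74). Hoxb5 in LG replicate 2 was at 0.567 (others 0.845 to 0.892). Hoxb13 in LG replicate 4 was at 15.04 (others 15.5 to 15.6).

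For 4 Hox genes the library set apart differed from the rest by 1 read. Hoxb1 was at 0.0125 in HFHG replicate 4 (others 0) and at 0 in LG replicate 3 (others 0.0126 to 0.0133). Hoxd1 was at 0.0152 in HFHG replicate 2 (others 0). Hoxd3 was at 0.01004 in LG replicate 1 (others 0). Hoxd13 was at 0 in HFHG replicate 2 (others 0.0104 to 0.0108).

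Of the other lists, Pknox2 was at 0.661 in LG replicate 2 (others 0.443 to 0.473). Pitx1 was at 0 in HFHG replicate 1 (others 0.0103 to 0.0106). Irx5 was at 1.53 in LG replicate 4 (others 0.881 to 0.958). Rxra was at 21.9 in LG replicate 3 (others 20.02 to 20.3). Phc1 was at 2.496 in HFHG replicate 3 (others 2.18 to 2.23). Rbbp7 was at 49.3 in LG replicate 3 (others 50.1 to 50.2).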

How the results depend on the processing

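Of the 13 called Hox genes, 12 kept their direction and their call in every alternative in which they were tested, and Hoxc10 lost its call in 10 of 20, with adjusted p from 0.0215 to 0.271 over all 20. With a pseudocount of 1 log2 fold changes at low levels shrank by more than 1.5 times, to 0.42 for Hoxb5, 0.37 for Hoxb3 and -0.26 for Hoxc9. Without a library, Hoxc10 had adjusted p = 0.135, 0.0662 and 0.0851 when HFHG replicate 2, 3 or 4 was left out, and 0.0791 and 0.116 when LG replicate 2 or 4 was. Hoxb4 gained a call without LG replicate 2 (adjusted p = 0.00498) and Hoxd8 without LG replicate 3 (0.0421), Hoxb2 gained one with libraries rescaled to the same sum (0.0283), and so did Hoxa3 with voom on recovered reads without a filter (0.0287). With quantile normalization 9 Hox genes were lower in place of 4. With voom on recovered reads without a filter, chosen after seeing the data, 2 Hox genes were past 2-fold in place of 0. The share of all genes past 2-fold in that fit is not given here. The causes of both changes were not tested. The sign of a log2 fold change near 0 reversed for Hoxa6 with quantile normalization (-0.0316), for Hoxa10 with libraries rescaled to the same sum (0.0229), and for Rarg with the same sum (0.0585) and with quantile normalization (0.0542). Leaving out 1 library in turn gave -0.0220 to 0.214 for Hoxa6, with the negative value without LG replicate 2, -0.0658 to 0.0331 for Hoxa10, with the positive value without HFHG replicate 1, and -0.0197 to 0.0182 for Rarg; the causes were not tested. With the replicate number as a block (replicate block), 9 Hox genes were higher and 3 lower, and over all genes 3841 and 3501. The numbers do not pair the samples, since correlations between libraries of the same number were -0.02, -0.01, -0.006 and -0.07. Of 578 values of named genes of the other lists, 565 kept direction and call, 2 lost a call (Pknox2 and Tgif2, both with quantile normalization), 5 gained one (Hibadh) and 6 reversed (Rarg). With libraries rescaled to the same sum the summed Hox FPKM was 1.19 times that of LG in place of 1.14. Of the TALE genes 2 were higher in place of 4 with quantile normalization and with an FPKM of at least 1, and 6 were with libraries rescaled to the same sum. Of the limb genes 2 were lower in place of 1 with quantile normalization. Of the flanking genes, 1 was higher, and 2 or 3 were in 7 of 20 alternatives. Hibadh was called, among others, without LG replicate 2 (adjusted p = 0.0438). Of the HoxD genes 7 of 8 were below the filter, and whether sequencing depth limits them was not tested.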
